A study of Mus musculus with 8 samples.

Results

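The genes of sterol and fatty acid synthesis were examined in RNA-seq of mouse brain. They are 32 genes chosen by name, of the 54532 genes listed for the first pair of groups and the 28229 listed for the second. All 32 were found in both tables with the same coordinates, and all 32 had enough counts to be tested in every comparison. They comprise 18 enzymes of the path from acetyl-CoA to cholesterol, 5 genes of the SREBP system, 2 genes of sterol transfer and turnover, and 7 genes of fatty acid and glycerolipid synthesis.

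The mice were male C57BL/6. The PTS + RS group (2 libraries) had photothrombotic stroke, a cortical infarct made by light after injection of a dye, and then repeated restraint stress. The RS group (2 libraries) had restraint stress without stroke. Both were sampled from cortex on Day 21, so that restraint stress is common to all mice and stroke is what differs. In the second experiment all mice had PTS + RS, and RGFP109, labelled as HDAC3 inhibitor, was given under the skin once a day at 60 mg/kg for 2 weeks (2 libraries) and compared with NaCl (2 libraries). There, replicate 1 of each group is labelled cortex and replicate 2 amygdala. The labels do not say whether libraries of a group come from separate mice or pools, so p-values measure only the spread between these libraries.

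Brain cholesterol is made locally, because the blood-brain barrier keeps out the cholesterol of plasma lipoproteins, and most of it lies in myelin. The supply is set by the SREBP transcription factors, which are held in the endoplasmic reticulum by Insig proteins through the escort protein SCAP when sterols are plentiful. When sterols are scarce the SREBPs move to the Golgi, are cleaved there and switch on the genes of sterol synthesis. SREBP-2, from Srebf2, is known to act mainly on sterol genes and SREBP-1c, from Srebf1, mainly on fatty acid genes.

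The promoter sequences below are those of Insig1, Srebf2 and Fads2, the genes past the threshold between PTS + RS and RS, and of Hmgcs1, a classical SREBP target. They are the 250 bases before the start that RefSeq gives on GRCm38.p6, read on the strand of the gene, from a table that holds a promoter for 25 of the 32 genes. The deposited table starts Insig1 49 bases and Srebf2 88 bases earlier, so that the ends of these windows lie within the gene by its annotation, and starts Hmgcs1 28 bases later and Fads2 at the same base. Capitals mark the letters TCACNCCAC (a form of the sterol regulatory element), CCAAT (the CCAAT box, bound by NF-Y, a partner of SREBP) and CACGTG (an E-box), each searched on both strands.
Insig1, chr5:28071162-28071411, plus strand: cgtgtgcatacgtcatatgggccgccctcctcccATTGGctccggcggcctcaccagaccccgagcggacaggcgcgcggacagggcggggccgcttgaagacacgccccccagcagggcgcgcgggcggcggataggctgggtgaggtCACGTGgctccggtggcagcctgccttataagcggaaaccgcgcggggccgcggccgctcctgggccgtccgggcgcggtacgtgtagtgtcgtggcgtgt
Srebf2, chr15:82147019-82147268, plus strand: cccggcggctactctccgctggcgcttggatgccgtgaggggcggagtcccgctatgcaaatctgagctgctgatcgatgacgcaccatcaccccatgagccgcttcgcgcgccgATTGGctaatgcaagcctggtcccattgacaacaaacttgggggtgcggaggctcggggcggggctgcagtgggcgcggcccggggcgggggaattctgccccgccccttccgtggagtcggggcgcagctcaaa
Hmgcs1, chr13:119690101-119690350, plus strand: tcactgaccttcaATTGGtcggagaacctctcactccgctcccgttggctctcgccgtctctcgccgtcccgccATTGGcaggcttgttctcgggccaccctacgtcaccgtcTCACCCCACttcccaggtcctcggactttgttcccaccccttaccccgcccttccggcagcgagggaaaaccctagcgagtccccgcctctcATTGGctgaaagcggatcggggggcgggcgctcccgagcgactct
Fads2, chr19:10101504-10101753, minus strand: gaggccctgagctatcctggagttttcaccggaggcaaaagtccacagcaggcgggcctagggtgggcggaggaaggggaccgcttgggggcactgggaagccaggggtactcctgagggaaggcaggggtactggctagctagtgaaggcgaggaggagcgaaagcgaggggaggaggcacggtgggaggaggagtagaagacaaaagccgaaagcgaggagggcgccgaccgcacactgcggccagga

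The CCAAT letters were found in 19 of the 25 promoters (76.0%), against 33.8% of 32851 promoter windows of the same length in the table. Of the 15 sterol pathway enzymes with a promoter 13 held them, and of the 4 fatty acid genes 1 did, Fasn. The windows of Tm7sf2, among the 13, and of Acaca, among the 4, lie wholly within the gene as the deposited table places it. They are chr19:6067851-6068100 in chr19:6062821-6077197 and chr11:84195188-84195437 in chr11:84129672-84401651. The sterol regulatory element in this spelling was found in Hmgcs1 only, starting 137 bases before the RefSeq start, against 1.05% of all windows. The E-box was found in Insig1, Hsd17b7 and Sc5d, against 6.02% of all windows. The Fads2 window held none of the searched motifs. These are matches of letters and not sites of binding.

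The libraries held between 15902013 and 21712033 counts on genes. Levels between genes are compared by the deposited FPKM (fragments scaled to gene length and library size), and levels between libraries by CPM, counts scaled to the TMM-normalized library size. Several libraries stood apart from their group. The summed CPM of 8 choroid plexus markers was 45.7 in PTS + RS replicate 2 but 1617 in replicate 1, and 1829 and 3817 in the RS libraries. In the second experiment the choroid plexus markers summed to 1515 CPM in HDAC3 inhibitor replicate 1. They summed to between 13.2 and 45.2 CPM in the other 3 libraries of that experiment. A list of 10 olfactory bulb markers summed to 1884 CPM in NaCl replicate 1 and to between 69.6 and 76.4 CPM in the other 3 libraries of that experiment. The replicates labelled amygdala summed to 1044 and 1188 CPM over 10 striatum markers, against 117 and 231 CPM in those labelled cortex. The amygdala markers summed to 171 and 177 CPM in the former and to 118 and 205 CPM in the latter, so that this list did not set the labelled amygdala apart. Results that rest on these libraries are given with and without them.

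Across all 8 libraries, Scd2, which encodes a stearoyl-CoA desaturase, had the highest level, between 269 and 367 FPKM. Next by median were the polyunsaturated fatty acid desaturases Fads2 (median 71.1 FPKM) and Fads1 (60.6 FPKM), then Cyp46a1 (44.0 FPKM), the hydroxylase by which neurons turn over cholesterol. Fatty acid synthase (Fasn, 35.8 FPKM), Scd1 (35.0 FPKM), Srebf2 (34.1 FPKM) and Hmgcs1 (31.3 FPKM) followed closely and their ranges overlapped. The enzymes after lanosterol were lower, from a median of 3.66 FPKM for Tm7sf2 to 13.4 FPKM for Sc5d. Fdps, farnesyl diphosphate synthase, was lowest at 0.317 FPKM and rested on 13 to 24 counts a library in the PTS + RS and RS libraries. The annotation lists a second protein-coding gene, Gm43738, over 7512 bases of Fdps on the same strand, and how reads shared by both were counted is not given in the sources used here. The level of Fdps is therefore uncertain. Vps51 likewise lies over 9356 bases of Tm7sf2 on the same strand, with 34 to 55 counts a library in the PTS + RS and RS libraries. The level of Tm7sf2 is uncertain in the same way. The steadiest gene over the 8 libraries was Sc5d, sterol desaturase, whose highest FPKM was 1.11 times its lowest.

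The comparison of PTS + RS with RS asks what stroke adds to restraint stress. In the PTS + RS group 27 of the 32 genes had a fitted change below 0, against 50.3% of all genes tested, with a median log2 fold change of -0.17 (-0.175 before rounding), and the median over the 17581 genes tested was -0.002. In 21 genes both PTS + RS libraries lay below both RS libraries, and in 2, Fads2 and Ebp, above. Among all genes tested 24.5% were separated downward and 25.7% upward. Past an adjusted p of 0.05 in edgeR's quasi-likelihood test, Insig1 and Srebf2 fell and Fads2 rose, that is 2 members lower against 0.586% of all genes, and 1 higher against 2.96%. At an unadjusted p under 0.05 edgeR counted 8 members lower and 1 higher, where 7.55% and 10.3% of all genes were. With a fold limit of 1 on the log2 scale added, 0 members were called, against 0.091% of all genes lower and 2.12% higher. Fewer cells of a type and less RNA per cell cannot be told apart in these bulk tissue libraries.

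**Figure D1:**
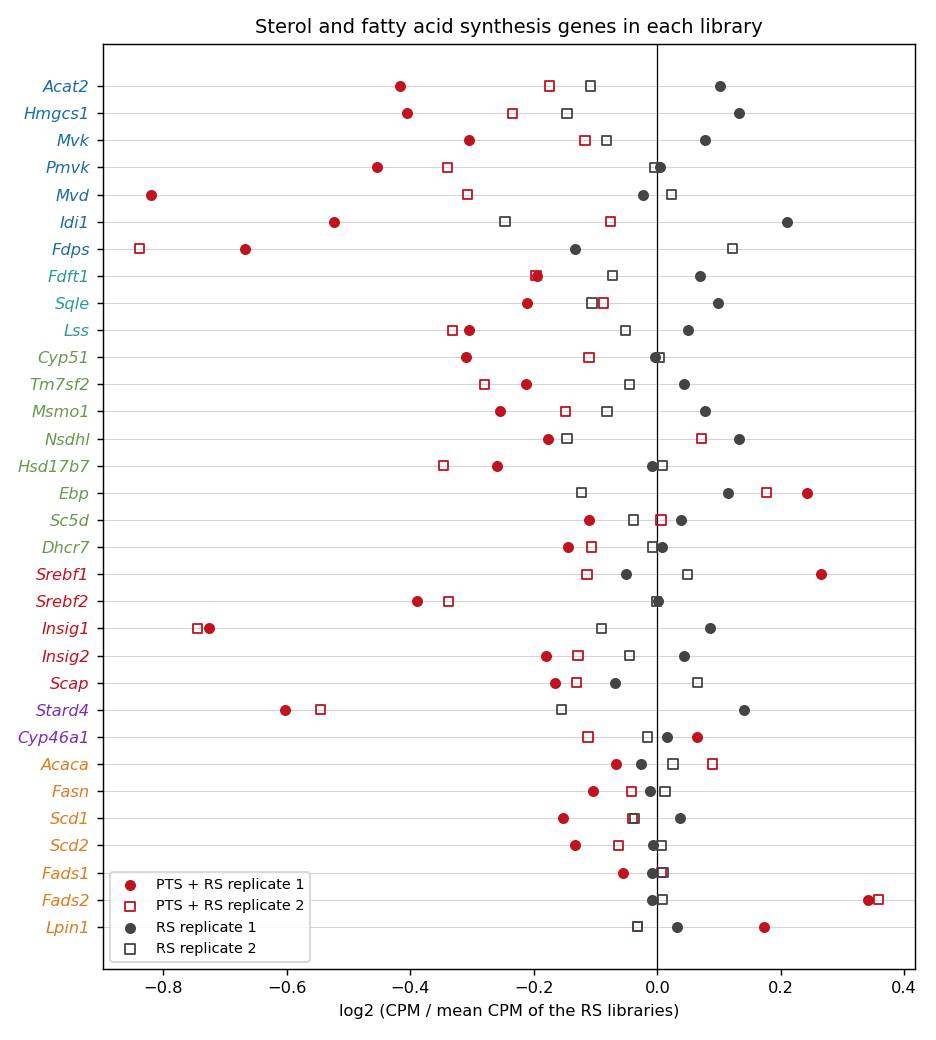
Level of each of the 32 genes (rows, grouped by role through the colour of the name) in the 2 PTS + RS and 2 RS libraries, as log2 of CPM over the mean CPM of the RS libraries. In 21 genes both red PTS + RS points lie left of both grey RS points, most widely in Insig1, and in Fads2 and Ebp they lie right of them.

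The SREBP system held both of the genes that fell. Insig1 (ENSMUSG00000045294, GRCm38 chr5:28071363-28078662), which retains the SREBPs and is itself switched on by them, was at 41.4 and 40.9 CPM in the PTS + RS libraries and at 72.7 and 64.4 CPM in the RS libraries. The groups lay far apart, and the replicates within each were close. The log2 fold change of Insig1 was -0.74 (SE 0.094, adjusted p = 0.0084, edgeR's quasi-likelihood test), a fall of 40.0%. Only 3.8% of all genes tested had a fitted change as low or lower. Insig1 was past the threshold with every tool tried and with each library left out, though never past the fold limit, with a log2 fold change between -0.83 and -0.65.

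Srebf2 (ENSMUSG00000022463, GRCm38 chr15:82147181-82205379) was at 190.4 and 197.2 CPM in the PTS + RS libraries and at 249.5 and 249.2 CPM in the RS libraries. Its log2 fold change was -0.36 (SE 0.072, adjusted p = 0.045, edgeR's quasi-likelihood test), a fall of 22.3%. The RS libraries were nearly equal and both PTS + RS libraries lay well below them. The call was lost without either RS library (adjusted p = 0.354 without replicate 1 and 0.437 without replicate 2, same test), while the log2 fold change stayed between -0.39 and -0.34. Insig2, a relative of Insig1 with the same retaining role, was at 43.8 and 45.4 CPM against 51.1 and 48.1 CPM. Scap, the escort, was at 91.5 and 93.7 CPM against 97.8 and 107.4 CPM. In both genes the libraries did not overlap but the fitted changes, -0.15 and -0.15, were not past the threshold. Srebf1 had no common direction, with 110.3 CPM in PTS + RS replicate 1 and 84.9 CPM in replicate 2 around 88.7 and 94.96 CPM in RS. Its log2 fold change of 0.09 was -0.11 without PTS + RS replicate 1 and 0.26, past the threshold, without replicate 2.

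The 18 enzymes of sterol synthesis lay lower on balance, although none of them was past the threshold. Of these, 17 had a fitted change below 0, against 50.3% of all genes tested, with a median log2 fold change of -0.23. Of the 18, 13 were separated downward, against 24.5% of all genes. At an unadjusted p under 0.05, edgeR counted 5 enzymes lower, against 7.55% of all genes. Their summed level was 595 and 647 CPM in the PTS + RS libraries and 761 and 686 CPM in the RS libraries. The sums of the groups did not overlap, but the RS libraries differed from each other by more than RS replicate 2 differed from PTS + RS replicate 2. In 12 of the 18 enzymes PTS + RS replicate 1 was the lowest of the 4 libraries, against 29.6% of all genes tested, and in 13 RS replicate 1 was the highest, against 20.4%.

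In the mevalonate pathway, which makes the isoprenoid units of sterols, all 7 genes had a fitted change below 0, with a median of -0.32. Of the 7, 6 were separated downward, against 24.5% of all genes tested. Mvd, which decarboxylates mevalonate diphosphate, was at 9.40 and 13.4 CPM in PTS + RS and at 16.3 and 16.8 CPM in RS. This is a log2 fold change of -0.54 (SE 0.191, adjusted p = 0.201, edgeR). The spread between its PTS + RS libraries is wide, and the value was -0.31 without PTS + RS replicate 1 and -0.82 without replicate 2, the latter past the threshold. Fdps had the lowest fitted change of all 32 genes, -0.74 (SE 0.395, adjusted p = 0.384, edgeR), from 0.876 and 0.778 CPM against 1.27 and 1.51 CPM. Its 95% confidence interval, from -1.67 to 0.19, includes 0. Pmvk, phosphomevalonate kinase, was at 15.7 and 17.0 CPM against 21.6 and 21.4 CPM, with a log2 fold change of -0.40 that was not past the threshold. Hmgcs1, HMG-CoA synthase, was at 122.5 and 137.9 CPM against 177.9 and 146.6 CPM (log2 fold change -0.32, SE 0.111, adjusted p = 0.198, edgeR). The value ran from -0.46 without RS replicate 2 to -0.18 without RS replicate 1, and Hmgcs1 was past the threshold without PTS + RS replicate 2 (adjusted p = 0.020, edgeR) and without the filter on low counts (adjusted p = 0.0125, edgeR). Acat2, which joins acetyl-CoA units, mevalonate kinase (Mvk) and the isomerase Idi1 had values between -0.29 and -0.21, and in Idi1 the groups overlapped.

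The next 3 enzymes make lanosterol, and their median log2 fold change was -0.20. Lss, which closes the ring of lanosterol, was at 30.0 and 29.4 CPM in PTS + RS and at 38.4 and 35.8 CPM in RS, a log2 fold change of -0.32 (SE 0.099, adjusted p = 0.153, edgeR). Squalene epoxidase (Sqle) overlapped between the groups, with a value of -0.15. Squalene synthase (Fdft1) was at 52.1 and 52.0 CPM against 62.5 and 56.7 CPM, a value of -0.20. The gene Ctsb lies on the opposite strand over 774 bases of Fdft1, with 21025 and 16157 counts in PTS + RS and 8214 and 7432 in RS. The strand setting of the counting is not given in the sources used here, so the share of such reads in Fdft1 was not tested.

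Among the 8 enzymes from lanosterol to cholesterol, 7 had a fitted change below 0, with a median of -0.16. Of the 8, 5 were separated downward, against 24.5% of all genes tested. Hsd17b7, a sterol ketone reductase, had the lowest value, from 21.4 and 20.2 CPM in PTS + RS to 25.5 and 25.8 CPM in RS (log2 fold change -0.30, SE 0.111, adjusted p = 0.218, edgeR). Lanosterol demethylase (Cyp51), the reductases Tm7sf2 and Dhcr7 and the methyl sterol oxidase Msmo1 were also separated downward, with values between -0.25 and -0.13. Nsdhl and Sc5d overlapped between the groups, and each had a value of -0.05. Ebp, the sterol isomerase, went the other way, at 14.7 and 14.1 CPM against 13.5 and 11.4 CPM, with a log2 fold change of 0.21 (SE 0.152, adjusted p = 0.531, edgeR).

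Stard4, a carrier of cholesterol between membranes and a known SREBP-2 target, was at 15.6 and 16.2 CPM in PTS + RS and at 26.1 and 21.3 CPM in RS. Its log2 fold change of -0.58 (SE 0.142, adjusted p = 0.084, edgeR) was the lowest after those of Fdps and Insig1, and was just short of the threshold. It was past the threshold without the filter on low counts and without either PTS + RS library. Cyp46a1 was nearly equal, at 148.0 and 130.9 CPM against 143.1 and 139.9 CPM.

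The 7 fitted changes of the fatty acid and glycerolipid genes lay around 0, with a median of -0.02 (-0.025 before rounding) and a range of -0.10 to 0.35. Whether their change differs from that of the sterol enzymes was not tested. Fads2 (ENSMUSG00000024665, GRCm38 chr19:10064164-10101503), the first desaturase on the way to long polyunsaturated fatty acids, was at 125.2 and 126.7 CPM in PTS + RS and at 98.3 and 99.5 CPM in RS. Replicates within each group were almost equal and the groups lay wide apart. Fads2 rose with a log2 fold change of 0.35 (SE 0.071, adjusted p = 0.048, edgeR's quasi-likelihood test), or by 27.4%. The call was lost with DESeq2 (adjusted p = 0.072), limma-voom (adjusted p = 0.059) and the size factors of DESeq2 in edgeR (adjusted p = 0.0503), and without either RS library. Its neighbour Fads1, which acts later on the same path, was at 198.1 and 206.8 CPM against 204.6 and 207.2 CPM. Scd1 (150.2 and 162.4 against 171.2 and 162.7 CPM), Scd2 (1479 and 1553 against 1614 and 1630 CPM) and Fasn (373.1 and 389.5 against 397.4 and 404.4 CPM) were separated downward by little, with log2 fold changes between -0.10 and -0.07. Acetyl-CoA carboxylase (Acaca, 0.01) and Lpin1 (0.07), a phosphatidate phosphatase of glycerolipid synthesis, overlapped between the groups.

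**Figure D2:**
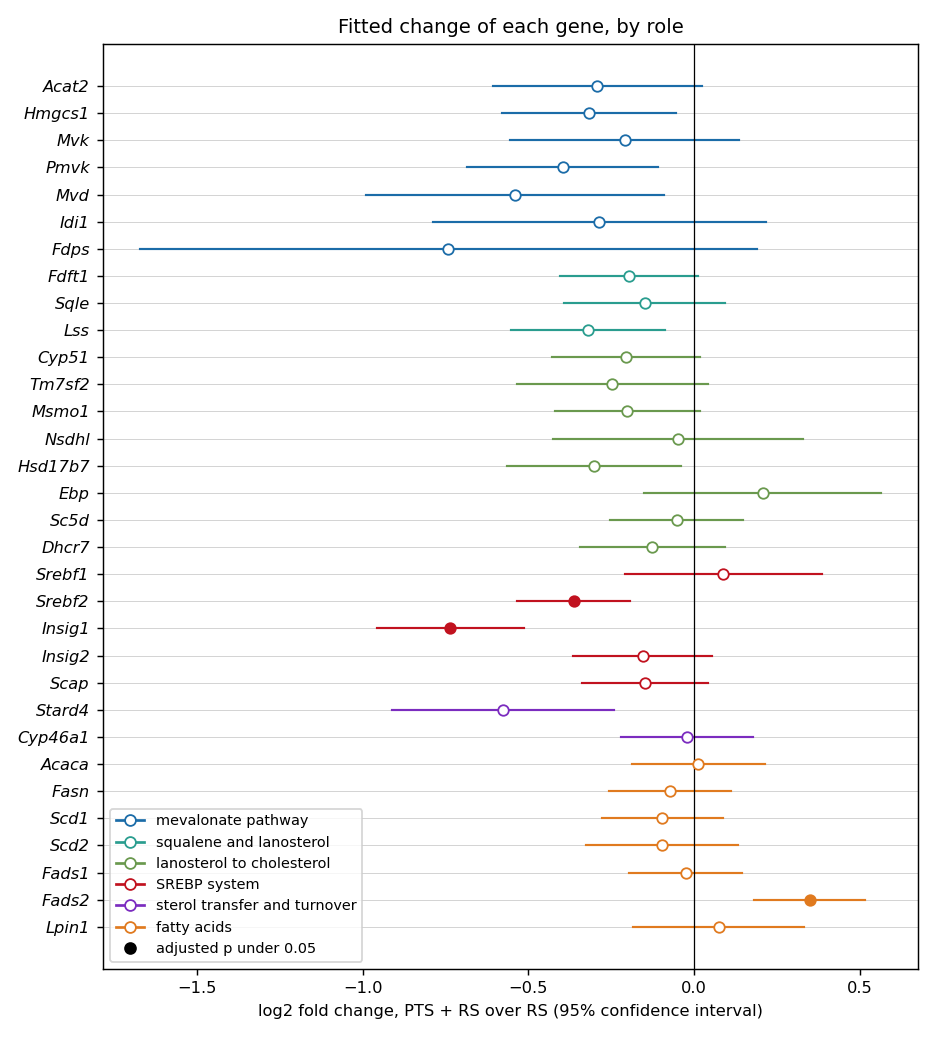
Fitted log2 fold change of PTS + RS over RS for each of the 32 genes with its 95% confidence interval, coloured by role, with filled points for genes past an adjusted p of 0.05. The 7 mevalonate genes all lie below 0 while the fatty acid genes scatter around 0 apart from Fads2 at 0.35, and the interval of Fdps is the widest.

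A list of 46 other lipid synthesis genes was examined beside these. Of the 45 tested 22 had a fitted change below 0, with a median of 0.01 (0.009 before rounding), and 0 were past the threshold in edgeR's quasi-likelihood test, with 6 higher and 3 lower at an unadjusted p under 0.05. Markers of other cell types moved with the groups. All 12 microglia markers were past the threshold upward, with a median log2 fold change of 2.11 and summed levels between 1360 and 1587 CPM in PTS + RS against 319 to 353 CPM in RS. Astrocyte markers summed to 6966 to 8194 CPM against 4812 to 4851 CPM, and 4 of 12 were past the threshold upward. For oligodendrocyte markers the sums were 6872 to 7694 CPM against 5590 to 6185 CPM, with 11 of 12 fitted changes above 0 and 1 past the threshold. Choroid plexus markers lay lower, with all 8 separated downward, 0 past the threshold, 4 lower at an unadjusted p under 0.05 in edgeR and a median of -1.92. The 12 neuron markers, of which 0 were past the threshold and 1 was lower at an unadjusted p under 0.05 in edgeR, had a median of -0.07. Their sums were 10020 CPM in PTS + RS replicate 1, 11730 CPM in replicate 2, and 11430 and 11340 CPM in the RS libraries. The part of the cell makeup in the lower sterol gene levels was not tested. Without PTS + RS replicate 2, the library low in choroid plexus markers, 27 of the 32 genes still had a fitted change below 0, with a median of -0.21. In that fit 6 members were past the threshold downward (Insig1, Srebf2, Stard4, Mvd, Hmgcs1 and Cyp51) and 2 upward (Fads2 and Srebf1), where 6.96% of all genes were lower and 7.69% higher. Without PTS + RS replicate 1, 26 genes were below 0 with a median of -0.12. There 3 members were past the threshold downward and 1 upward, against 4.13% and 5.58% of all genes.

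In the second experiment the question was what the HDAC3 inhibitor did in PTS + RS mice. None of the 32 genes was past the threshold: 0 members and 0 of the 17565 genes tested (0%) had an adjusted p under 0.05 by edgeR, DESeq2 or limma-voom. Without adjustment, edgeR put 88 genes higher (0.501%) and 118 lower (0.672%) at a p under 0.05, and 0 of the members. The replicates of a group differ in labelled tissue here, and the common biological coefficient of variation was 32.1% against 11.4% in the first experiment. With the same libraries grouped by tissue label it was 26.5%. The median log2 fold change of the members was -0.05, against -0.02 for all genes tested, and 20 of 32 were below 0, as were 52.6% of all genes. The members' median was 0.03 without NaCl replicate 1 and -0.13 without HDAC3 inhibitor replicate 1. Only Pmvk and Tm7sf2 were separated downward and Sc5d upward, against 13.8% and 12.8% of all genes.

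The lowest fitted value was that of Scd1, which puts the double bond into stearate. It was at 168.9 and 190.1 CPM with the HDAC3 inhibitor and at 324.0 and 171.8 CPM with NaCl, a log2 fold change of -0.47 (SE 0.341, adjusted p = 1, edgeR). NaCl replicate 1 alone stood high, and without it the value was 0.06. Srebf1 followed the same order, with 85.3 and 82.6 CPM against 123.9 and 79.9 CPM (log2 fold change -0.28), and 0.06 without NaCl replicate 1. Scd2, at 2027 CPM, and Fasn, at 525 CPM, were also highest in that library, which is the one that holds the olfactory bulb markers. Whether those markers and these levels are linked was not tested.

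The highest values were those of Fdps (0.35, SE 0.479, adjusted p = 1, edgeR), at 2.09 and 1.40 CPM against 1.59 and 1.14 CPM, and Dhcr7 (0.23, SE 0.245, adjusted p = 1, edgeR), the reductase that finishes cholesterol, at 39.0 and 26.6 CPM against 28.1 and 27.6 CPM. The value of Dhcr7 rested on HDAC3 inhibitor replicate 1, the library high in choroid plexus markers, and was -0.07 without it. Whether those markers and this value are linked was not tested. Of the genes past the threshold in the first experiment, Insig1 was at 55.5 and 43.8 CPM with the inhibitor and at 67.5 and 48.0 CPM with NaCl, lower in each replicate pair. Its log2 fold change was -0.22, with a 95% confidence interval from -0.86 to 0.42, and 0.04 without NaCl replicate 1. Srebf2 was at 256.3 and 225.2 CPM against 279.8 and 243.1 CPM, also lower in each pair (log2 fold change -0.12). Fads2 was at 117.8 and 92.4 CPM against 113.5 and 102.4 CPM, with no common direction. Stard4 was at 22.4 and 25.9 CPM against 24.6 and 27.5 CPM. Of the 45 other lipid genes tested 0 were past the threshold and 0 were at an unadjusted p under 0.05 in edgeR, with a median of 0.02.

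Replicate numbers share a tissue label in this experiment, so the ratio of the inhibitor to NaCl was also taken within each number, with 1 library a side and no test. In replicate 1 the median log2 ratio of the 32 genes was -0.09 and 18 were below 0, and in replicate 2 it was -0.05 and 19 were below 0. The ratios of 21 genes (65.6%) had opposite signs in the 2 pairs, against 51.4% of all genes tested, but in 0 of them did both reach 0.25 in size, against 11.8% of all genes. In replicate 1 the ratios of 11 of the 18 sterol enzymes lay above 0 and 7 below, with a median of 0.06, and of the 7 fatty acid genes 1 lay above and 6 below. The members furthest above 0 were Dhcr7 (0.47), Cyp46a1 (0.39), Fdps (0.37), Fdft1 (0.36) and Mvd (0.35), and those furthest below were Scd1 (-0.94), Srebf1 (-0.54), Lpin1 (-0.48), Scd2 (-0.41) and Lss (-0.31). Apart from Fdps, their ratios in replicate 2 were between -0.21 and 0.15. Fdps was the one gene with a ratio over 0.25 in both pairs, at 0.37 and 0.27, on few counts.

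**Figure D3:**
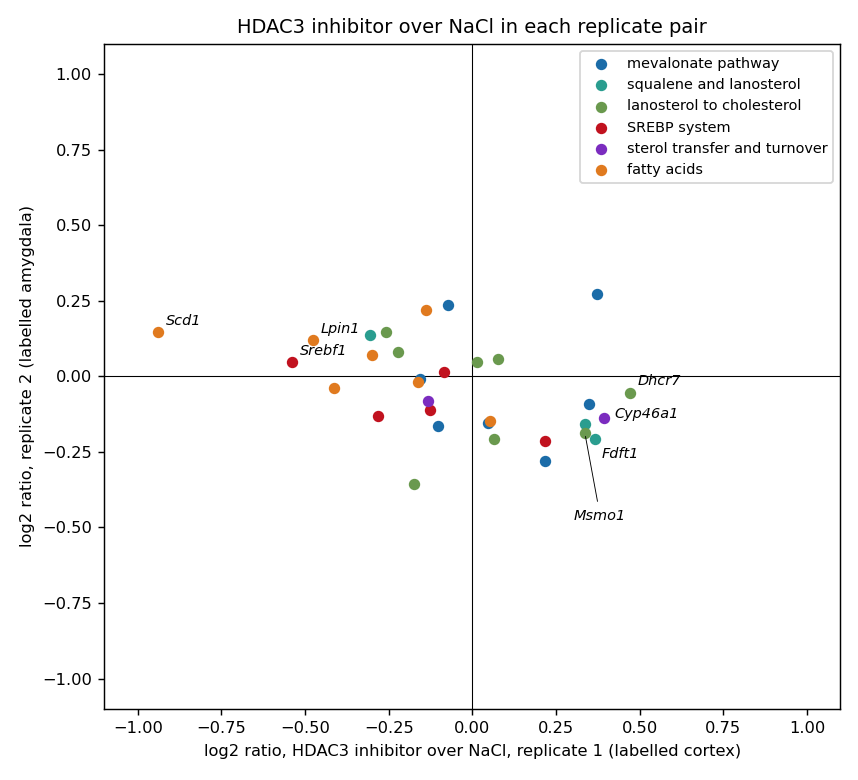
Log2 ratio of the HDAC3 inhibitor over NaCl for each of the 32 genes in the replicate 1 pair (horizontal) and the replicate 2 pair (vertical), coloured by role, with 1 library a side. Points spread from -0.94 to 0.47 along the replicate 1 axis and less along the other, and the named genes have opposite signs and a gap over 0.5.

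The same 4 libraries were compared by tissue label, replicate 2 of both groups (amygdala) against replicate 1 of both (cortex). edgeR put 0 of 17565 genes past the threshold (0%), although 1196 were higher (6.81%) and 772 lower (4.4%) at an unadjusted p under 0.05 and DESeq2 called 314 and 102. Of the members 0 were called by edgeR, DESeq2 or limma-voom. Without adjustment 1 was higher in edgeR, Fdft1, and 1 lower, Insig2. In the libraries labelled amygdala 21 of the 32 members had a fitted change below 0 (all genes 53.3%), with a median of -0.18 against -0.03 for all genes. Of the members 14 were separated downward and 4 upward, against 22.4% and 21.6% of all genes. All 5 genes of the SREBP system lay below 0, and 4 of them were separated. Their median of -0.36 was the value of Srebf1, at 82.6 and 79.9 CPM against 85.3 and 123.9 CPM, the last in NaCl replicate 1. With 1 library left out the value of Srebf1 ranged from -0.60 to -0.06. Insig1 had 43.8 and 48.0 CPM in the libraries labelled amygdala and 55.5 and 67.5 CPM in those labelled cortex, a log2 fold change of -0.42 (SE 0.162, adjusted p = 0.447, edgeR). Insig2 had 42.9 and 42.5 CPM against 53.8 and 57.0 CPM, a value of -0.38 (-0.375 before rounding, SE 0.132, adjusted p = 0.42, edgeR).

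The largest positive fitted changes by tissue label were those of Fdft1 and Cyp46a1. Fdft1 was at 76.6 and 88.4 CPM in the libraries labelled amygdala and at 62.1 and 48.2 CPM in those labelled cortex (log2 fold change 0.58, SE 0.185, adjusted p = 0.389, edgeR). For Cyp46a1 the levels were 214.3 and 235.9 CPM against 181.8 and 138.5 CPM (0.49, SE 0.192, adjusted p = 0.452, edgeR). Fdps (-0.53, SE 0.373, adjusted p = 0.659, edgeR) and Scd1 (-0.45, SE 0.336, adjusted p = 0.679, edgeR) were lowest, and Scd1 turned to 0.11 without NaCl replicate 1. The calls turned on single libraries: 2 members were past the threshold upward and 8 downward without HDAC3 inhibitor replicate 1, where 15.1% of all genes were higher and 13.6% lower. Without NaCl replicate 1 they were 0 and 1, against 8.27% and 5.51% of all genes. The libraries labelled amygdala also had more microglia (631 to 733 against 329 to 420 CPM) and oligodendrocyte marker counts (4515 to 5009 against 3169 to 3194 CPM), whose part was not tested. Of the 45 other lipid genes tested 27 were below 0, with a median of -0.08 (-0.085 before rounding), and 0 were past the threshold in edgeR, with 3 higher and 1 lower at an unadjusted p under 0.05.

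The NaCl mice also had PTS + RS, and their FPKM can be set beside those of the first experiment, although the tables were made separately and no test was made between them. Insig1 was at 13.3 and 13.2 FPKM in PTS + RS, 23.4 and 20.7 FPKM in RS, and 21.6 and 15.5 FPKM with NaCl. Stard4 was at 2.76 and 2.89 FPKM in PTS + RS, at 4.65 and 3.79 FPKM in RS, and at 4.36 and 4.90 FPKM with NaCl. Srebf2 was at 26.3 and 27.3 FPKM in PTS + RS, at 34.5 FPKM in both RS libraries, and at 38.5 and 33.7 FPKM with NaCl. These 3 genes were picked for their values in the first experiment. Over all 32 members both NaCl libraries lay above both PTS + RS libraries in 12 and below both in 3, against 21.7% and 24.0% of the 16944 genes tested in both tables. The summed microglia markers were 353 and 319 CPM in the RS libraries. They were 329 CPM in the NaCl library labelled cortex and 733 CPM in the one labelled amygdala. Both NaCl values lay below the 1360 to 1587 CPM of the PTS + RS libraries of the first experiment. Treatment, experiment and dissection cannot be told apart in this difference.

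**Figure D4:**
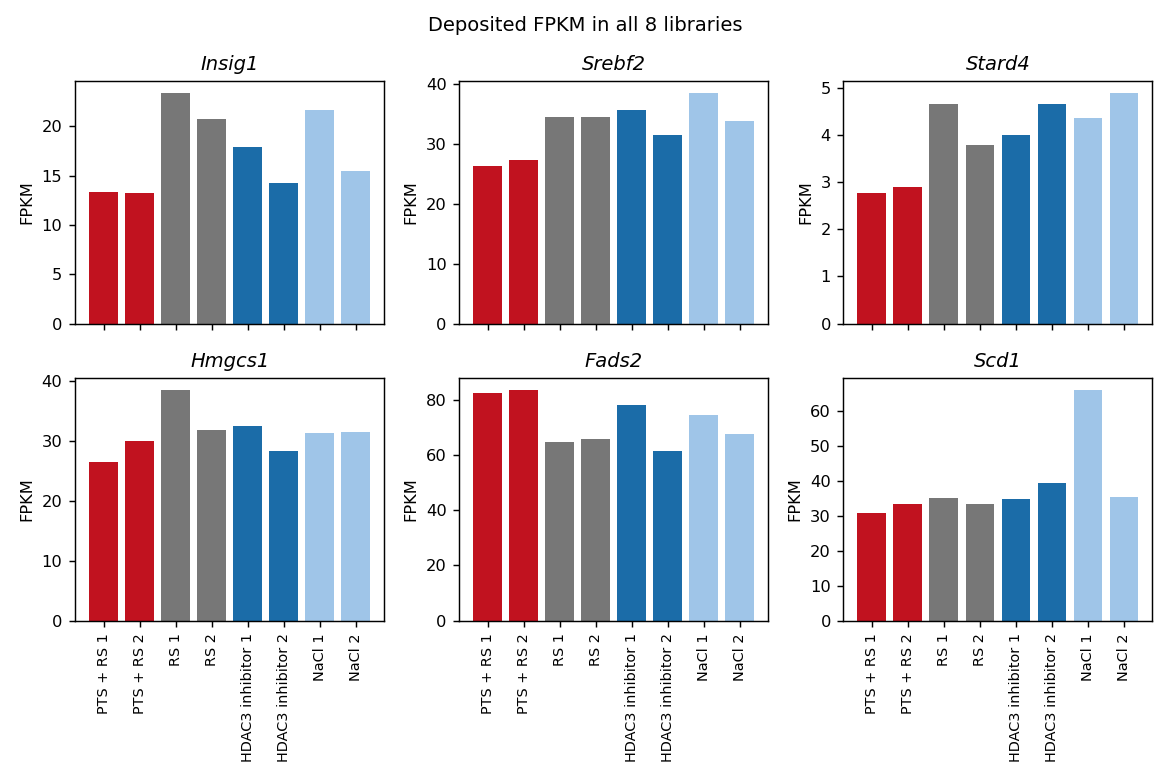
Deposited FPKM of Insig1, Srebf2, Stard4, Hmgcs1, Fads2 and Scd1 in each of the 8 libraries, 1 bar a library, with axes from 0. Insig1, Srebf2 and Stard4 are lowest in the 2 PTS + RS libraries, Fads2 is highest there, and the bar of Scd1 in NaCl replicate 1, 66.2 FPKM, stands far above the other 7.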

How the data were processed

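RNA-seq was carried out on 8 libraries in 4 groups of 2. Per the labels and the methods, the authors aligned reads to GRCm38 with STAR 2.4.0, counted reads per gene with HTSeq 0.6.1, and deposited these counts without normalization together with FPKM calculated from them. The deposited tables also hold columns of group means, fold changes and p-values of the authors' own comparisons, and 8 columns of normalized values per library, none of which was used. The labels name a directional library kit, the methods another kit, and the strand setting of the counting is not given in the sources used here.

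Here the counts were analysed in R (4.3.3) with the packages edgeR (4.0.16), DESeq2 (1.42.0) and limma (3.58.1). Tables and figures were made in Python (3.11.15) by matplotlib (3.10.9) and pandas (2.3.3). Low counts were removed by filterByExpr, and the rest were normalized by TMM and compared by edgeR's quasi-likelihood test without a block, with Benjamini-Hochberg adjustment over all genes tested, 17581 and 17565 in the 2 tables. A gene was called at an adjusted p under 0.05. Groups of a gene are called separated where both libraries of one lie above both of the other. Log2 ratios of single libraries used a prior count of 2. The study names limma, which was used as an alternative (limma-voom). The other alternatives were DESeq2, its size factors in edgeR, no filter, the replicate number as a block, a fold limit, and each library left out. The fits were tested on simulated counts.

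The genes, the other lipid genes and the markers were chosen with earlier results of these data known, and the olfactory bulb list was added after NaCl replicate 1 was seen to stand apart. Every gene is described by role. Values per library are given for those called, those with the 2 largest rises and falls in a comparison, and others of interest. Same-numbered drug and NaCl libraries share a tissue label, and the correlation of their deviations from the group means was 0.299. For PTS + RS and RS it was 0.035, and the labels give the number no other meaning. Counts of replicates differed by more than sampling noise, for which the chi-square per gene would be about 1. It was 15 in PTS + RS and 4.9 in RS. In the HDAC3 inhibitor and NaCl groups, where the replicates also differ in tissue label, it was 38 and 82.7. The spread between libraries thus limits the precision more than the depth.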

Additional observations from a re-analysis of the deposited data

Results flagged for a closer look

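The 2 replicate pairs of the HDAC3 inhibitor and NaCl libraries carry different tissue labels, and 7 of the 32 genes had log2 ratios of opposite sign in them with a gap over 0.5. With 1 library a side the difference was not tested. For Scd1 the ratio was -0.94 in replicate 1 and 0.15 in replicate 2, for Srebf1 -0.54 and 0.047, and for Lpin1 -0.48 and 0.12. The 3 lay below 0 in the pair that holds NaCl replicate 1, the library with the olfactory bulb markers. The same pair holds HDAC3 inhibitor replicate 1, the library high in choroid plexus markers. In the other direction, Dhcr7 was at 0.47 in replicate 1 and -0.054 in replicate 2, Cyp46a1 at 0.39 and -0.14, Fdft1 at 0.36 (0.365 before rounding) and -0.21, and Msmo1 at 0.34 and -0.19.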

How the results depend on the processing

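In PTS + RS against RS, 0 members were called higher with the DESeq2 size factors in edgeR, with DESeq2 and with limma-voom, and 0 in either direction with the fold limit; without a filter 5 were called lower. Over all genes, 187 were lower with DESeq2 and 16 with the fold limit. Without a filter 1119 of the 30105 genes then tested were higher and 716 lower. With the replicate number as a block 687 genes were higher and 228 lower, and of the members 1 and 2, as without it. The block changed no call of a member in any comparison. With 1 library left out, 0 to 2 members were higher and 1 to 6 lower (genes 339 to 1413 and 32 to 1278), and the median of the members was between -0.23 and -0.12 (-0.117 before rounding). The log2 fold change took both signs among these fits in 7 members, Nsdhl (-0.185 to 0.093), Sc5d (-0.114 to 0.004), Srebf1 (-0.114 to 0.263), Cyp46a1 (-0.114 to 0.063), Lpin1 (-0.033 to 0.170), Fads1 (-0.058 to 0.005) and Acaca (-0.069 to 0.089).

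For the HDAC3 inhibitor against NaCl, 0 members were called in any setting. Without NaCl replicate 2, 15 genes were higher and 78 lower (range 0 to 15 and 0 to 78), and the median of the members ranged from -0.132 to 0.028. Among the members named here it took both signs in Dhcr7 (-0.065 to 0.487), Scap (-0.206 to 0.213), Insig2 (-0.229 to 0.177), Fads2 (-0.222 to 0.127), Srebf1 (-0.552 to 0.064), Insig1 (-0.434 to 0.040) and Scd1 (-0.842 to 0.057), where Srebf1, Insig1 and Scd1 were above 0 without NaCl replicate 1 only.

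By tissue label, DESeq2 called 314 genes higher and 102 lower, and edgeR without a filter 13 higher and 0 lower. With 1 library left out the counts were 0 to 2831 and 0 to 2552, of the members 0 to 2 and 0 to 8, with a median of -0.192 to -0.067, and Scd1 ranged from -0.836 to 0.112, above 0 without NaCl replicate 1. The cause of these changes was not tested. A left-out fit leaves 1 library in an arm, which is assumed to vary like the others.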
